A study of Mus musculus with 48 samples.

Results

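Ileum of mice at week 4 was compared with ileum at week 3, in 3 samples per age, which are 6 of the 48 samples of the series. Each sample was RNA from the full thickness of a 2 cm piece of bowel cut just above the junction with the caecum. The series follows mouse duodenum and ileum from birth to week 4, the period that covers susceptibility to necrotizing enterocolitis, and its 3 duodenum samples per age are set beside the ileum below. All mice were C57Bl/6J of both sexes with no other allele or agent, and per the labels they stayed with the dam to day 21 and were then moved to chow, so week 4 closes the first week on solid food. The labels call the housing standard germ-free, and whether the mice lacked microbes or were only free of pathogens could not be settled. Different ages are different mice, usually 2 or 3 ages being taken from a litter. The labels do not say that each sample is a separate animal, so p-values measure a spread between samples. That spread was estimated over all 48 samples of the series, not from the 6 compared alone.

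At weaning the small intestine changes its work. The suckling ileum takes up milk proteins whole through an apical network of endosomes and large lysosomes, and this machinery is lost when the epithelium is replaced by the adult type. In the same weeks the antibodies supplied by milk run out, the microbiota diversifies with solid food, and the gut builds its own defence. That defence has several layers. Enterocytes secrete lectins of the Reg3 family that bind bacteria, Paneth cells release lysozyme and defensins into the crypts, lymphocytes settle between epithelial cells, and plasma cells make IgA that the receptor Pigr carries into the lumen. Interferon from lymphocytes induces guanylate-binding proteins, immunity-related GTPases and the antigen presentation machinery in epithelial cells.

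Totals ran from 16824021 to 34606300 estimated counts in the 6 libraries. Several library features moved with age. Mitochondrially encoded genes took 14.6% to 16.9% of counts at week 3 and 26.9%, 22.1% and 35.2% in week 4 samples 1, 2 and 3, and 13 of 15 tested genes of this kind rose. Week 3 sample 1 had Xist, the marker of female mice, and samples 2 and 3 had the Y-linked Ddx3y, whereas all 3 week 4 samples had Xist and no Ddx3y. With an index of sex as a covariate the test given below called 2351 genes in place of 2622, and with the mitochondrially encoded genes left out of the scaling it called 2648. The tissue label held for the week 3 samples and for week 4 samples 2 and 3: Fabp6, the bile acid binding protein of ileal enterocytes, measured 828, 1049 and 879.5 CPM at week 3 against 42.0, 1265 and 1970.0 CPM at week 4, and Slc10a2, the ileal bile acid transporter, 393, 389 and 281 CPM at week 3 against 58.0, 648 and 287 CPM at week 4. Week 4 sample 1 was the lowest for both and the highest for Gata4, a regulator of proximal enterocytes, with 86.5 CPM against 21.3 and 22.7 CPM in samples 2 and 3 and 45.1 to 56.5 CPM at week 3. Over 19 genes more than 8-fold higher in ileum than in duodenum at weeks 2 and 3 its mean log2 CPM was 2.25, against 3.83 to 4.20 in the other 5 ileum samples. Over 24 genes more than 8-fold higher in duodenum at those ages the mean was 1.33, 0.086 and 1.504 in week 4 samples 1, 2 and 3, against -0.64, -0.08 and -0.41 at week 3, so that sample 3 was as high as sample 1 by this measure. Values without week 4 sample 1 are given beside many of the results that it moves, not beside all of them. Pancreatic genes summed to 7.95 to 12.4 CPM and genes of the large intestine to at most 2.79 CPM, with Car1 at 1.16 and 2.45 CPM in week 4 samples 2 and 3. Genes of red blood cells summed to 271, 355 and 249 CPM at week 3 against 694, 272 and 1170.0 CPM at week 4.

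Rises were seen in most listed genes of lymphocytes, interferon response and antigen presentation, and in some antimicrobial genes, together with falls of some suckling and fat-handling genes. By edgeR's quasi-likelihood test with Benjamini-Hochberg adjustment, 2622 of 20901 genes (12.5%) passed an adjusted p of 0.05 (are called, below). Of these 1484 rose (7.10% of tested genes) and 1138 fell (5.44%), and 1152 rises and 634 falls exceeded 2-fold. Without week 4 sample 1, 2879 of 21831 genes (13.2%) were called, 1451 rising (6.65%) and 1428 falling (6.54%), and 2197 genes were called in the same direction in both fits. The share of calls that were rises thus went from 56.6% to 50.4%. The count ran from 1706 without week 3 sample 1 to 3163 without week 3 sample 3, it was 1527 with only the compared groups in the fit, and it was 4753 without the 8 samples that the authors' normalized tables lack. The median log2 change over all tested genes was -0.0049. The 3 samples of one age lay all above or all below those of the other in 5333 genes (25.5%). In whole bowel, more cells of a type and more RNA per cell cannot be told apart. Levels are CPM, the usual unit of counts relative to library size, after scaling between libraries. Changes are log2 fold changes of week 4 over week 3 ± SE, and a list's count is read against the 7.10% rising and 5.44% falling among all genes.

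**Figure D1:**
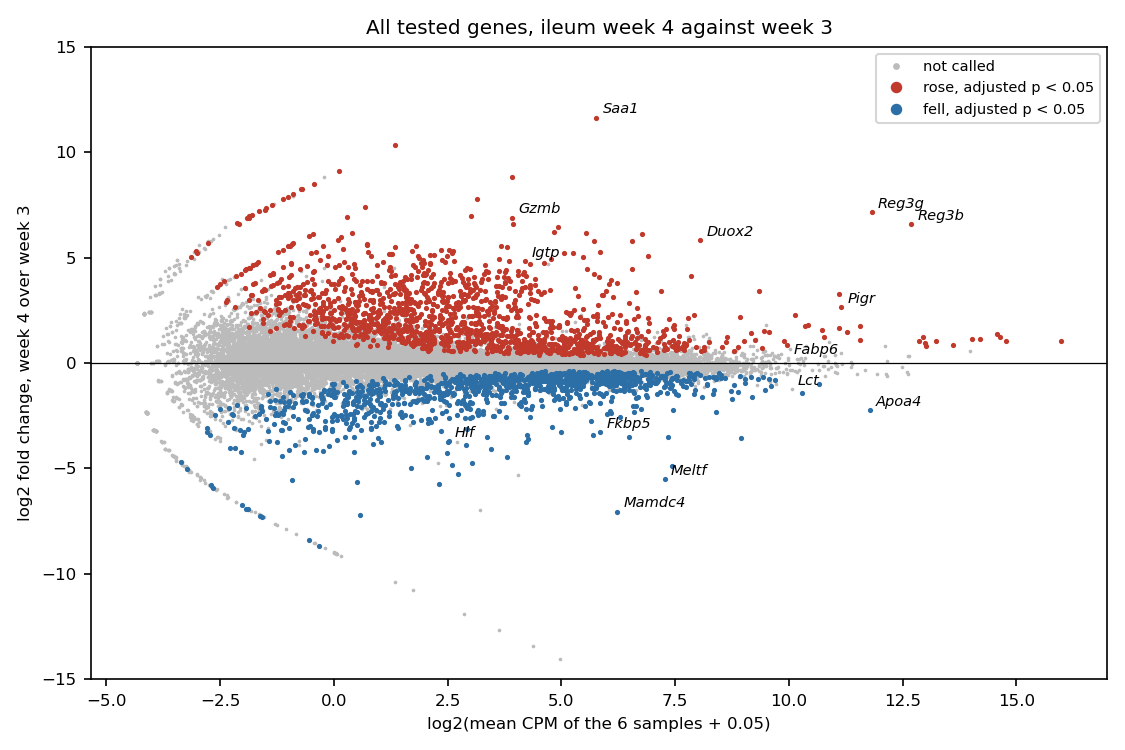
Log2 fold change of week 4 over week 3 (vertical) against the log2 of the mean CPM plus 0.05 of the 6 ileum samples (horizontal), 1 point per tested gene. Red points rose and blue points fell at an adjusted p of 0.05, 1484 and 1138 genes, and the curved edges are genes with counts at only 1 age.

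Reg3g and Reg3b, secreted lectins that bind the cell walls of bacteria, went from minor to among the most abundant transcripts of the genes listed. Reg3g measured 33.4, 62.4 and 54.2 CPM at week 3 against 6362, 9101 and 6082 CPM at week 4. Its week 4 samples lay far above the highest week 3 sample, for a log2 change of 7.17 ± 0.64 (adjusted p = 2.50e-10). Reg3b measured 102, 186 and 116 CPM at week 3 against 11627, 16305 and 11159.8 CPM at week 4, again with no overlap of the ages and with sample 2 the highest at both ages (log2 change 6.60 ± 0.78, adjusted p = 1.19e-07). At week 2 the mean levels had been 10.1 and 24.6 CPM. Reg3a rose from a mean of 15.1 to 69.4 CPM (log2 change 2.20 ± 0.39, adjusted p = 9.27e-05), and Lypd8, a secreted protein that holds flagellated bacteria away from the epithelium, rose from 377 to 1856 CPM (log2 change 2.30 ± 0.23, adjusted p = 2.56e-09).

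Among the 14 genes of secreted epithelial defence, 5 rose and 2 fell, with a median log2 change of 2.05. The fifth rise was Retnlb, a bactericidal resistin-like protein of goblet cells, which had 0 counts in every week 3 sample and 2.00, 3.16 and 1.02 CPM at week 4. Reg4, a lectin of deep crypt and enteroendocrine cells, went the other way. It measured 115, 143 and 86.6 CPM at week 3 against 62.3, 40.1 and 49.4 CPM at week 4, all week 4 samples lying below all week 3 samples (log2 change -1.18 ± 0.24, adjusted p = 5.46e-04). Sprr1a, a small proline-rich protein of stressed epithelium, fell by 3.72 ± 0.95 on the log2 scale (adjusted p = 0.00635, lost without week 3 sample 1), from 62.5, 20.3 and 21.1 CPM at week 3 to 0.998, 3.97 and 2.79 CPM at week 4. With the sample number as a block, in a fit of the compared groups alone (the block, below), it did not pass (adjusted p = 0.0946), and 9 members of the list rose in that fit.

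Of 9 tested genes of oxidant enzymes and serum amyloid A 8 rose (median log2 change 2.52). The list joins enzymes that produce hydrogen peroxide, superoxide or nitric oxide with Gpx2, which removes peroxide, and acute phase proteins. Duox2, the epithelial dual oxidase, measured 9.27, 7.93 and 10.1 CPM at week 3 against 428, 872 and 258 CPM at week 4. Its maturation factor Duoxa2 measured 1.48, 1.16 and 1.18 CPM at week 3 against 84.3, 139.8 and 50.2 CPM at week 4. For both genes the week 3 samples were close together and the week 4 samples spread about a higher level with sample 2 on top, and the log2 changes were 5.83 ± 0.73 and 6.16 ± 0.65 (adjusted p = 4.09e-07 and 8.94e-09). Nos2, the inducible nitric oxide synthase, rose by 5.08 ± 0.90 (adjusted p = 1.10e-04). Saa1, a retinol-binding acute phase protein that epithelium makes on contact with bacteria, was nearly absent at week 3, with 1, 1 and 0 counts, and measured 38.6, 200.1 and 87.9 CPM at week 4. Its fitted log2 change of 11.65 rests on those few counts and is no bound, and the ratio of its summed counts per summed library size was 4324, with an interval of 1197 to 35709 for counting error alone (95%, exact binomial). Smaller rises were those of Nox1 (2.20 ± 0.62, a call kept in 15 of 18 alternatives), its organizer Noxo1 (0.92 ± 0.25), Gpx2 (1.61 ± 0.48) and Saa3 (2.52 ± 0.79), and the last pair were not called without week 4 sample 1 (adjusted p = 0.0573 and 0.108). Without week 4 sample 2 the list had 5 rises.

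In the list of 18 Paneth cell genes, 6 rose and 2 fell (median log2 change 0.80). Mptx2, a pentraxin of mature Paneth cells, measured 3.25, 3.53 and 2.45 CPM at week 3 against 157, 369.7 and 121 CPM at week 4, with every week 4 sample far above every week 3 sample (log2 change 6.13 ± 0.60, adjusted p = 1.87e-09). Its neighbour gene Mptx1 fell, from 9.51, 8.90 and 7.80 CPM at week 3 to 5.46, 1.59 and 3.06 CPM at week 4 (log2 change -1.40 ± 0.33, adjusted p = 0.00238). The matrix protease Mmp7, which activates mouse defensins, rose by 2.32 ± 0.32 (adjusted p = 1.64e-06), the bactericidal ribonuclease Ang4 by 2.73 ± 0.38 (adjusted p = 1.64e-06) and the lectin Itln1 by 2.20 ± 0.44 (adjusted p = 4.81e-04). Lysozyme, Lyz1, measured 318, 507 and 255 CPM at week 3 against 877, 1501 and 721 CPM at week 4 and rose by 1.52 ± 0.39 (adjusted p = 0.00588), a call that was lost without week 4 sample 2. Guca2b, the ligand of guanylate cyclase C, fell by 1.49 ± 0.30 on the log2 scale (adjusted p = 5.51e-04). Its log2 change was -2.04 without week 4 sample 1, and its fall is not read as a change of Paneth cells. Of 28 tested alpha-defensin genes, whose near-identical copies share reads by the authors' estimation model, 5 rose, with a median log2 change of 0.64. Their summed level was 2673, 4061 and 1860 CPM at week 3 against 3875, 6212 and 4316 CPM at week 4, so the ages overlapped.

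Few mucus genes were called. Clca1, a protease of the mucus layer, rose by 1.22 ± 0.28 (adjusted p = 0.00184) and Fcgbp, an abundant mucus protein, by 1.03 ± 0.33 (adjusted p = 0.034), the 2 calls among 12 goblet cell genes, and Fcgbp kept its call in 10 of 18 alternatives. With the block 1 of the 12 rose and Fcgbp was not called (adjusted p = 0.0547). Muc2, the gel-forming mucin, measured 1623, 1124 and 1968 CPM at week 3 against 1444, 1992 and 2477 CPM at week 4, with overlapping ages and a log2 change of 0.33 ± 0.41 (adjusted p = 0.683).

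**Figure D2:**
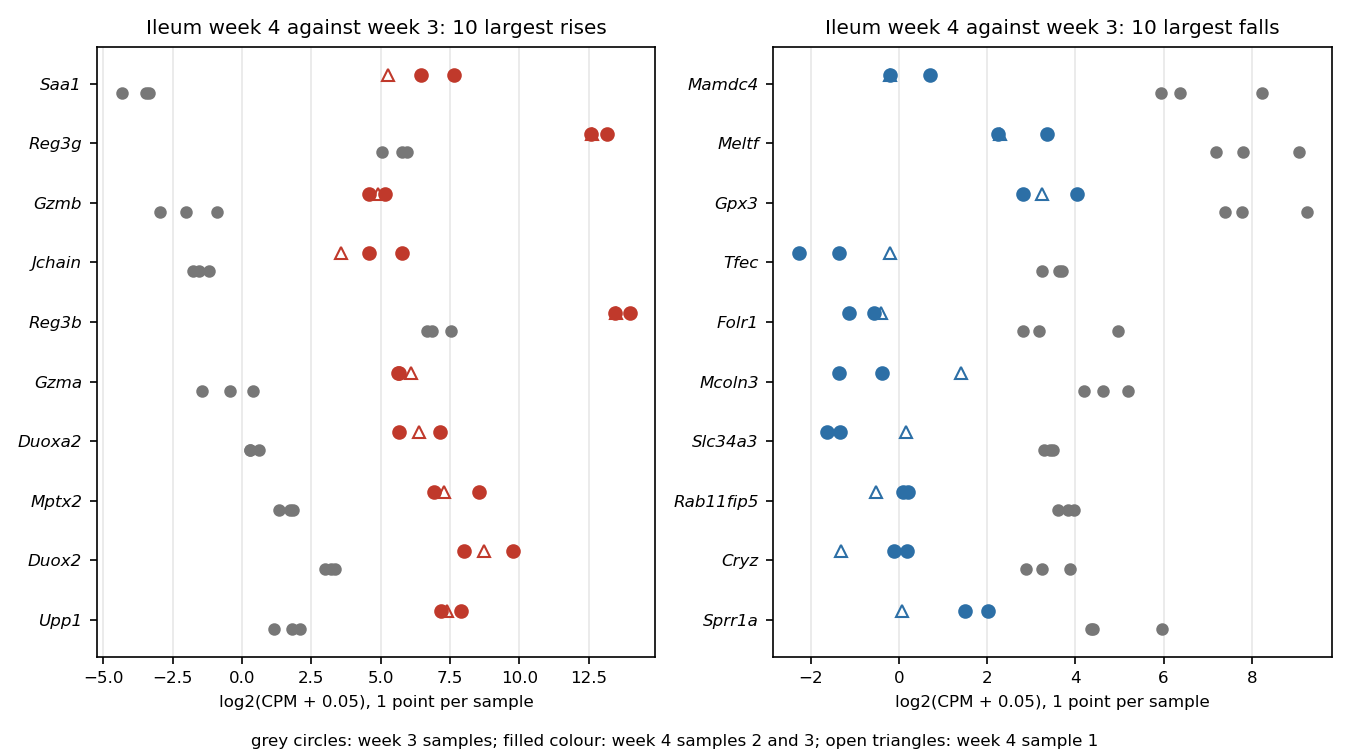
Levels by sample, as log2 of CPM plus 0.05, for the 10 largest rises (left) and the 10 largest falls (right) that were called with and without week 4 sample 1 and whose ages did not overlap. Grey circles are week 3 samples, filled coloured circles week 4 samples 2 and 3, and open triangles week 4 sample 1. The choice of genes without overlap itself puts sample 1 on the same side of week 3 as the others in all 20 genes.

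All 24 genes of T cells and intraepithelial lymphocytes rose, with a median log2 change of 4.01, and all 24 rose again without week 4 sample 1. The largest changes of the list were those of 2 granzymes, proteases of killer lymphocytes. Gzma measured 0.321, 1.26 and 0.687 CPM at week 3 against 68.4, 50.2 and 49.3 CPM at week 4. Gzmb measured 0.0802, 0.484 and 0.196 CPM at week 3 against 29.9, 36.0 and 23.9 CPM at week 4. Both were at or below 1.26 CPM in each week 3 library and above 20 CPM in each week 4 library, and they rose by 6.23 ± 0.67 and 6.91 ± 0.71 (adjusted p = 1.24e-08 and 3.85e-09). Cd8a, the coreceptor of cytotoxic and most intraepithelial T cells, measured 0.401, 1.02 and 1.42 CPM at week 3 against 18.1, 13.8 and 15.9 CPM at week 4 (log2 change 4.09 ± 0.48, adjusted p = 8.35e-08). Itgae, the integrin chain that anchors lymphocytes to epithelial cadherin, rose by 3.12 ± 0.32 (adjusted p = 3.52e-09).

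Genes of both T cell receptor lineages rose. Trdc, the constant gene of the gamma-delta receptor's delta chain, measured 0.160, 0.145 and 0.343 CPM at week 3 against 7.75, 6.19 and 7.07 CPM at week 4 (log2 change 5.01 ± 0.58, adjusted p = 5.08e-08). Trac, the constant gene of the alpha chain, measured 0.241, 0.677 and 0.834 CPM at week 3 against 6.34, 5.59 and 8.97 CPM at week 4 (log2 change 3.59 ± 0.50, adjusted p = 2.05e-06). Neither overlapped between ages. The pan-lymphoid Cd7 rose by 5.06 ± 0.47 and Cd3e, a signalling chain of both receptors, by 3.95 ± 0.58. Cd4, the coreceptor of helper T cells, had the smaller change of 2.08 ± 0.56 (adjusted p = 0.00975), from 1.04, 1.35 and 1.32 CPM at week 3 to 3.23, 4.09 and 8.495 CPM at week 4, and its call was lost without week 3 sample 1, without week 4 sample 3 and with the sex index in the model. At week 2 the mean levels of Gzma and Cd8a had been 1.39 and 0.783 CPM. Leaving out a single sample gave 21 to 24 rises in the list.

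B cell and lymphoid follicle genes rose in 16 of 19 tested members, with a median log2 change of 4.26. Cd79a, a signalling chain of the B cell receptor, measured 0.642, 2.42 and 2.06 CPM at week 3 against 14.1, 33.4 and 55.6 CPM at week 4. Cr2, the complement receptor of follicular dendritic cells and B cells, measured 0.241, 0.580 and 0.981 CPM at week 3 against 14.03, 23.5 and 44.4 CPM at week 4. For both, and for Ms4a1, Cd79b and Blk, sample 1 was the lowest and sample 3 the highest of the week 4 libraries, and all week 4 values were above all week 3 values. The log2 changes were 4.34 ± 0.82 for Cd79a, 5.52 ± 1.03 for Cr2 and 3.70 ± 0.55 for Ms4a1 (adjusted p = 2.06e-04, 1.81e-04 and 7.03e-06). Spib, a transcription factor of B cells and of the M cells over follicles, rose by 4.36 ± 0.61 (adjusted p = 1.98e-06). The 3 members not called were Madcam1, Gp2 and Tnfaip2, the vessel addressin and a pair of genes that mark M cells. Whether a 2 cm piece held a lymphoid patch was not recorded, and its part in the B cell values was not tested.

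The IgA system rose with them, in 10 of 13 tested genes (median log2 change 4.67). Igha, the heavy chain constant gene of IgA, measured 0.481, 0.774 and 0.834 CPM at week 3 against 22.9, 62.0 and 95.6 CPM at week 4. Jchain, which joins IgA monomers, measured 0.241, 0.387 and 0.294 CPM at week 3 against 11.7, 23.8 and 55.2 CPM at week 4. Again every week 4 sample was above every week 3 sample and sample 1 was the lowest at week 4, with log2 changes of 6.44 ± 0.70 and 6.61 ± 0.68 (adjusted p = 3.94e-08 and 3.77e-09). The light chain constant gene Igkc rose by 5.80 ± 0.86 and the B cell coactivator Pou2af1 by 4.67 ± 0.66 (adjusted p = 8.03e-06 and 2.30e-06). Pigr, the epithelial receptor that carries IgA into the lumen, was the most abundant of the list, with 581, 841 and 456 CPM at week 3 against 4853, 3969 and 2982 CPM at week 4 (log2 change 2.65 ± 0.55, adjusted p = 6.45e-04). Among variable segments, 13 of 14 tested kappa and 5 of 5 tested heavy chain genes rose. The antigen receptor segments are short and similar, so their estimated counts depend on how shared reads were assigned.

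Few genes of other leukocytes were called. Of 13 macrophage genes 2 rose, with a median log2 change of -0.04. With the block 1 rose and 1 fell, and without week 4 sample 1 there was 1 rise. Lyz2, the myeloid lysozyme, had a log2 change of 2.82 ± 0.64 (adjusted p = 0.00177). The macrophage receptor gene Csf1r measured 15.8, 13.1 and 11.3 CPM at week 3 against 6.28, 7.03 and 6.66 CPM at week 4 (log2 change -1.01, adjusted p = 0.0903, and 0.0355 with the block, where it was that fall), and Adgre1, which encodes F4/80, was at 0.884 to 3.09 CPM in the 6 samples with overlapping ages. Of 9 tested neutrophil genes 1 rose, Ltf, the gene of lactoferrin, and it was not called without week 4 sample 1 (adjusted p = 0.0705). Of 9 mast cell genes 0 were called by edgeR, with 2 at an unadjusted p under 0.05 and 1 by DESeq2, and 1 rose without week 4 sample 1. Among 8 tested genes of lymphocyte cytokines and type 3 immunity, Ltb, a lymphotoxin that organizes lymphoid tissue, rose by 4.54 ± 0.87 (adjusted p = 2.61e-04), as did Il22ra2, the decoy receptor of interleukin 22, and Lta, a lymphotoxin subunit, which lost its call when any of 4 single samples was left out. With the block 1 rose, in a fit whose filter on low counts left out Il22ra2 and Lta. Of the 8 tested genes in the chemokine list, only Ccl6 was called, rising by 1.91 ± 0.23 (adjusted p = 9.45e-08), and 2 rose with the block. Chemokines placed in the T cell, B cell and interferon lists rose as well. Their log2 changes included 5.56 for Ccl5, 4.52 for Cxcl10, 3.90 for Cxcl9, 3.51 for Cxcl13 and 1.76 for Ccl20. These were called in the main fit (adjusted p = 1.18e-06, 1.34e-04, 0.00119, 0.00102 and 3.64e-04) and with the block.

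Antigen presentation rose on both branches. Of 9 genes for presentation by MHC class II, which shows extracellular antigen to CD4 T cells, 8 rose (median log2 change 3.19). Ciita, the master regulator of this branch, measured 1.08, 3.24 and 3.34 CPM at week 3 against 12.1, 26.4 and 30.8 CPM at week 4 (log2 change 3.18 ± 0.44, adjusted p = 2.09e-06). H2-Ab1, a class II beta chain, measured 5.46, 12.1 and 10.2 CPM at week 3 against 80.6, 183 and 105.2 CPM at week 4 (log2 change 3.74 ± 0.48, adjusted p = 5.12e-07). In neither gene did the ages overlap. The exception in the list was Ctss, the protease that processes the invariant chain (adjusted p = 0.0665), and with the block (adjusted p = 0.0108) and with DESeq2 all 9 rose. Of 12 genes of MHC class I and the immunoproteasome, which display peptides from within the cell, 10 rose (median log2 change 1.55). Psmb8, a catalytic immunoproteasome subunit, measured 6.26, 6.29 and 5.79 CPM at week 3 against 85.04, 63.6 and 68.2 CPM at week 4, with tight groups at both ages (log2 change 3.56 ± 0.26, adjusted p = 1.45e-12). Psmb9 rose by 2.51 ± 0.20, the peptide transporter gene Tap1 by 2.56 ± 0.23, and the abundant light chain gene B2m by 1.47 ± 0.22 (adjusted p = 1.28e-11, 3.61e-10 and 4.53e-06).

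Interferon-stimulated genes rose in 30 of 31 members, with a median log2 change of 2.86, and 27 to 30 members rose when a single sample was left out. The members with the smallest p included targets of interferon gamma. Zbp1, a sensor of left-handed nucleic acids, measured 0.963, 2.08 and 2.21 CPM at week 3 against 59.0, 62.4 and 71.4 CPM at week 4 (log2 change 5.21 ± 0.37, adjusted p = 6.31e-13). Igtp, an immunity-related GTPase that attacks the vacuoles of intracellular parasites, measured 1.04, 1.55 and 1.18 CPM at week 3 against 33.7, 42.2 and 30.6 CPM at week 4 (log2 change 4.83 ± 0.32, adjusted p = 3.40e-13). Its relative Irgm2 measured 2.37, 2.85 and 2.89 CPM at week 3 against 30.6, 34.9 and 31.0 CPM at week 4 (log2 change 3.57 ± 0.26, adjusted p = 1.45e-12). In these 3 genes the samples of an age lay within 3-fold of each other and the ages were at least 10-fold apart, and week 4 sample 1 was not separate from samples 2 and 3.

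The guanylate-binding protein Gbp6 rose by 4.82 ± 0.37 (adjusted p = 6.06e-12). Irf1, a transcription factor that interferon induces early, started higher and had a smaller change. It measured 45.9, 72.4 and 68.0 CPM at week 3 against 162, 167 and 128 CPM at week 4 (log2 change 1.297 ± 0.16, adjusted p = 3.28e-07). Genes of the oligoadenylate synthase family, antiviral enzymes that sense double-stranded RNA, moved unequally. Oas1a rose by 1.998 ± 0.32 and Oas3 by 1.73 ± 0.32 (adjusted p = 2.01e-05 and 1.32e-04), whereas Oasl1, the member of the list that was not called, measured 49.8, 39.6 and 42.2 CPM at week 3 against 53.2, 66.0 and 61.5 CPM at week 4 (log2 change 0.46 ± 0.29, adjusted p = 0.347). Igtp had stood at 7.97 CPM and Psmb8 at 18.3 CPM at week 2, above their week 3 means of 1.26 and 6.11 CPM, so week 3 was the lowest of the 3 ages for both.

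The promoters of the interferon-stimulated genes were searched for the core of the interferon-stimulated response element, written here as GAAANNGAAA, or TTTCNNTTTC on the other strand. Windows ran from 250 bases before to 50 after the start site in RefSeq on GRCm38.p6. The table had windows for 21 of the 31 list members, and 14 of these (66.7%) held the motif, against 1079 of 27025 genes in the table (3.99%). It was in 1 of 10 MHC class I genes, 1 of 6 MHC class II genes and 1 of 13 T cell genes with a window. The interferon list was chosen as genes that interferon stimulates, so its share of the motif does not bear on the rises seen here. The 150 bases before the start site are shown for the 4 list members with the smallest p that have the motif there, with the motif in capitals and each strand written 5′ to 3′ toward the gene:
Igtp (chr11:58199406-58199555, plus strand): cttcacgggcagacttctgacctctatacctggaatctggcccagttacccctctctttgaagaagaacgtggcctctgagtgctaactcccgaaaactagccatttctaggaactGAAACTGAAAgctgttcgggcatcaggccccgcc
Irgm2 (chr11:58214827-58214976, plus strand): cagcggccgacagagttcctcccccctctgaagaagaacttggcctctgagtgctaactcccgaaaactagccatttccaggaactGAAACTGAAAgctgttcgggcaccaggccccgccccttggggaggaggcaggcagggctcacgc
Ifit1bl1 (chr19:34601969-34602118, minus strand): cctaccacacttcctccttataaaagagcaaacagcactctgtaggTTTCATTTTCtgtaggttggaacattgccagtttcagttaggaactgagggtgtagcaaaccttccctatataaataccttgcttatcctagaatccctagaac
Irgm1 (chr11:48871421-48871570, minus strand): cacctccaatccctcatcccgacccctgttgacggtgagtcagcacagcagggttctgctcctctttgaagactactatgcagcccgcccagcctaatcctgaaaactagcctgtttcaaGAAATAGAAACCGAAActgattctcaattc
The motif begins 34 bases before the start site in Igtp and 64 in Irgm2, and the same 10 letters lie within a longer stretch that these neighbouring genes share. In Ifit1bl1 it begins at 104 bases and reads on the opposite strand. Irgm1 has 2 overlapping copies, at 30 and 24 bases. Ifit1bl1, an interferon-induced tetratricopeptide gene, measured 24.95, 18.9 and 8.14 CPM at week 3 against 139, 198 and 204 CPM at week 4 (log2 change 3.38 ± 0.36), and Irgm1, a regulator of the other GTPases, 14.2, 16.7 and 11.9 CPM at week 3 against 47.0, 55.6 and 64.2 CPM at week 4 (log2 change 1.96 ± 0.21). The ages were separate for both. A match of letters describes the window and shows no binding.

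Tuft cells are chemosensory cells that detect luminal metabolites and start type 2 immunity through interleukin 25. Of 11 tested tuft cell genes 10 rose (median log2 change 3.21), and 9 did so without week 4 sample 1. Trpm5, the cation channel of their taste-like pathway, measured 1.16, 1.11 and 1.47 CPM at week 3 against 15.5, 8.09 and 20.1 CPM at week 4 (log2 change 3.54 ± 0.66, adjusted p = 1.81e-04). Dclk1, a kinase used to mark them, measured 1.52, 2.32 and 5.69 CPM at week 3 against 46.4, 11.9 and 31.8 CPM at week 4 (log2 change 3.24 ± 0.64, adjusted p = 3.64e-04). In these genes, and in Avil, sample 2 was the lowest at week 4 and still lay above week 3. Pou2f3, the transcription factor that defines the lineage, rose by 2.40 ± 0.53 (adjusted p = 0.00147). Only 1 of 14 enteroendocrine hormone genes was called. It was Gcg, the precursor of glucagon-like peptides, at 15.5, 16.6 and 17.9 CPM at week 3 against 39.9, 38.1 and 37.0 CPM at week 4 (log2 change 1.20 ± 0.28, adjusted p = 0.0023).

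Sensors of microbes went in different directions. Of 16 tested Toll-like receptor and adaptor genes 4 rose and 1 fell. Tlr5, the receptor for flagellin, fell by 2.52 ± 0.33 on the log2 scale (adjusted p = 6.87e-07), from 6.14, 4.98 and 5.15 CPM at week 3 to 0.704, 1.31 and 0.680 CPM at week 4, after a mean of 20.7 CPM at week 2. Tlr2 and Tlr1, which pair to sense bacterial lipoproteins, rose by 2.15 ± 0.36 and 2.63 ± 0.44, and Tlr9, the sensor of bacterial DNA, by 3.42 ± 0.65 (adjusted p = 3.99e-05, 3.18e-05 and 2.12e-04). Myd88, the adaptor that most of these receptors use, rose by 0.65 ± 0.17 (adjusted p = 0.00803), but not with the block (adjusted p = 0.0547).

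Sugar-coating enzymes of the epithelial surface included 6 rises and 1 fall among 14 genes (median log2 change 0.68). Fut2, which adds the terminal fucose that gut bacteria can use, measured 2.17, 1.11 and 1.96 CPM at week 3 against 26.2, 91.7 and 23.2 CPM at week 4. All week 4 values exceeded all week 3 values, and sample 2 stood over 3 times above the other 2 (log2 change 4.75 ± 0.50, adjusted p = 8.15e-09). Gmds, which makes the activated form of fucose, rose by 1.27 ± 0.26, and Fut8, which adds the core fucose of glycoproteins, by 1.02 ± 0.18 (adjusted p = 6.14e-04 and 9.83e-05). Upp1, uridine phosphorylase, is outside every list and was among the 10 largest rises, with 2.17, 3.48 and 4.27 CPM at week 3 against 168, 238 and 144 CPM at week 4 (log2 change 5.80 ± 0.40, adjusted p = 3.40e-13).

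**Figure D3:**
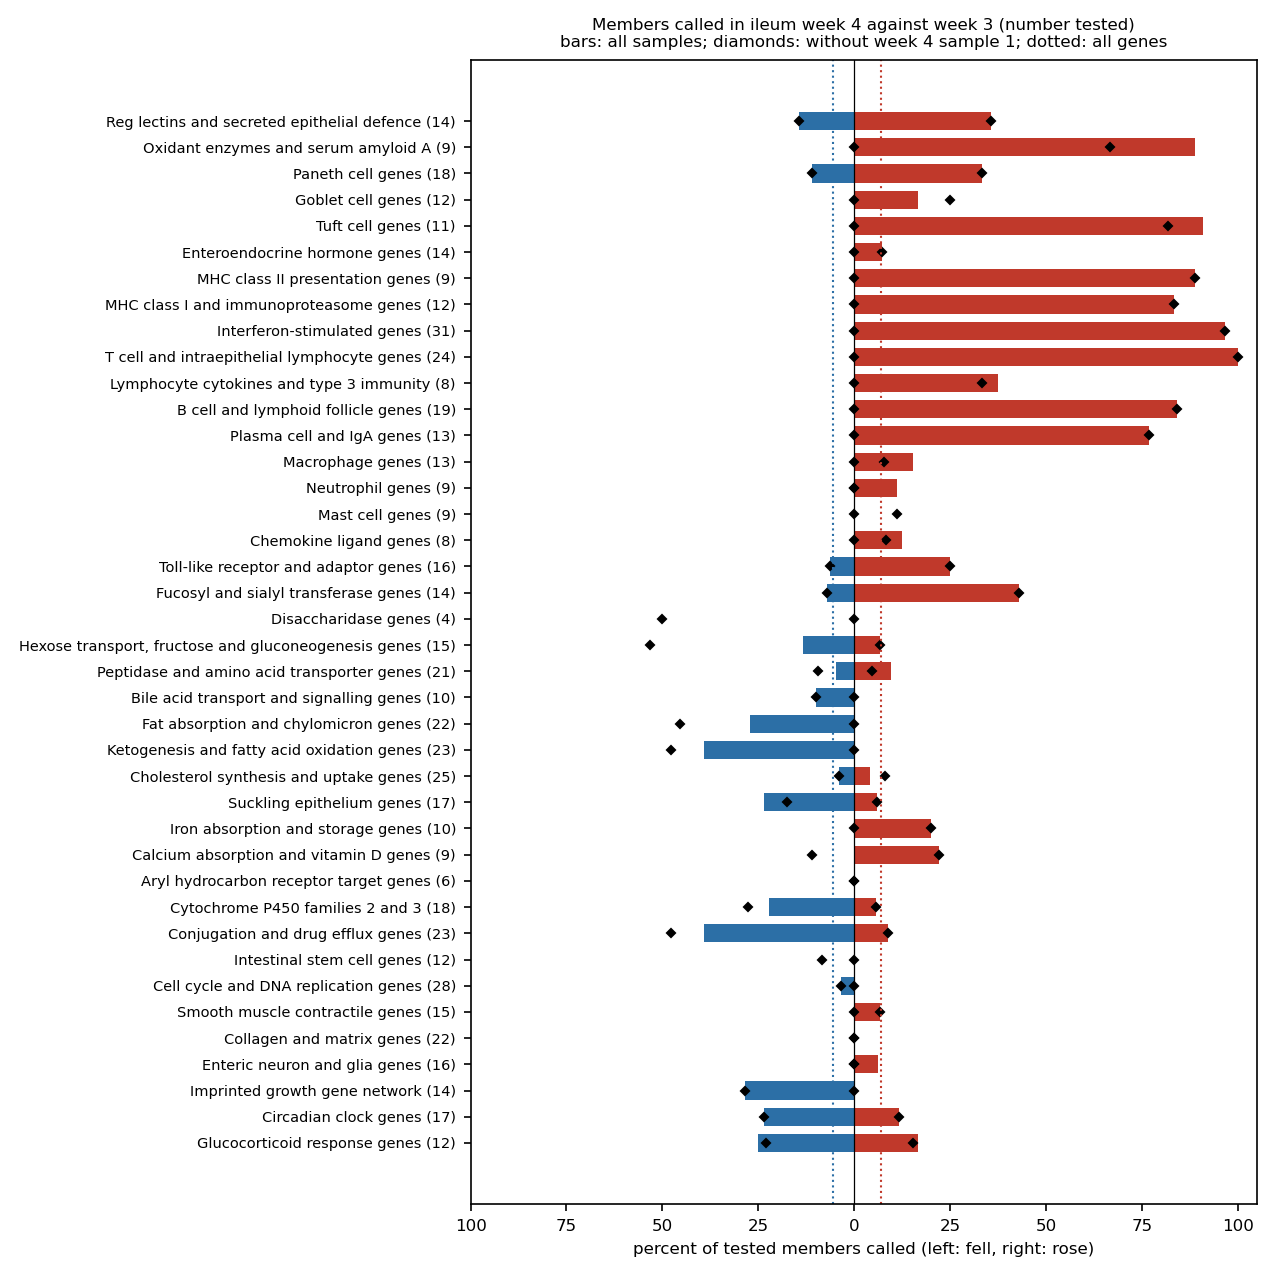
Percent of the tested members of 40 gene lists that rose (bars to the right) or fell (bars to the left) in ileum week 4 against week 3, with the number tested in brackets. Diamonds are the same shares without week 4 sample 1, and dotted lines mark the 7.10% and 5.44% of all tested genes that rose and fell.

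Among the 10 largest falls were Mamdc4, Meltf, Gpx3 and Folr1, which were already below their week 2 means at week 3. Mamdc4, an apical endosomal glycoprotein of suckling enterocytes, measured 301, 61.5 and 82.6 CPM at week 3 against 0.822, 1.56 and 0.816 CPM at week 4. Its log2 change was -7.05 ± 0.89 (adjusted p = 3.89e-07). The mean at week 2 had been 3278 CPM, so the week 3 samples lay between the suckling level and the near absence at week 4, with sample 1 above samples 2 and 3. The same order of samples was seen in 3 further genes. Meltf, a membrane-bound iron-binding protein, measured 538, 146 and 222 CPM at week 3 against 4.87, 10.1 and 4.69 CPM at week 4 (log2 change -5.50 ± 0.95, adjusted p = 7.26e-05). Gpx3, the secreted glutathione peroxidase, measured 605, 169 and 221 CPM at week 3 against 9.39, 16.4 and 7.0001 CPM at week 4 (log2 change -4.91 ± 0.72, adjusted p = 4.84e-06). Folr1, a folate receptor, measured 31.2, 8.95 and 6.97 CPM at week 3 against 0.704, 0.625 and 0.408 CPM at week 4 (log2 change -4.73 ± 0.77, adjusted p = 2.68e-05). The ages did not overlap in these 4 genes, as the rule for the largest falls required. Week 2 means had been 3497, 5740.0 and 776 CPM for the last 3.

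Others of the 10 largest falls had week 3 samples closer together. Tfec, a transcription factor of the family that controls lysosome genes, measured 12.8, 9.34 and 12.3 CPM at week 3 against 0.822, 0.156 and 0.340 CPM at week 4 (log2 change -4.84 ± 0.50, adjusted p = 4.41e-09). Mcoln3, a cation channel of endosomes and lysosomes, measured 36.7, 18.2 and 24.7 CPM at week 3 against 2.58, 0.719 and 0.340 CPM at week 4 (log2 change -4.48 ± 0.50, adjusted p = 2.96e-08). In both, week 4 sample 1 kept the highest level at week 4, and without it the log2 changes were -5.72 and -5.56. Rab11fip5, an effector of recycling endosomes, fell by 3.89 ± 0.40 on the log2 scale (adjusted p = 3.52e-09), Slc34a3, a sodium-dependent phosphate transporter, by 4.28 ± 0.51 (adjusted p = 8.58e-08), and Cryz, a quinone reductase, by 3.75 ± 0.38 (adjusted p = 2.56e-09).

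The list of 17 suckling epithelium genes had 4 falls and 1 rise (median log2 change -0.58). Dab2, the endocytic adaptor of the protein uptake complex, fell by 2.58 ± 0.58 on the log2 scale (adjusted p = 0.0018) and Ass1, which makes arginine in the suckling gut, by 2.26 ± 0.40 (adjusted p = 1.01e-04, and 0.0557 with the block). Cubn, the receptor of the same uptake complex, was still abundant at week 3. Its mean was 1380.1 CPM at week 2, and it measured 1717, 1847 and 1887 CPM at week 3 against 778, 753 and 492 CPM at week 4. Its fall of 1.43 ± 0.48 (adjusted p = 0.0448) kept its call in 10 of 18 alternatives and was lost without week 4 sample 1 (adjusted p = 0.0645). Prdm1, the repressor that holds the suckling state in place, was higher at week 4 than at week 3. It measured 13.1, 13.3 and 11.7 CPM at week 3 against 20.7, 29.9 and 19.2 CPM at week 4 (log2 change 0.88 ± 0.28, adjusted p = 0.0296, a call kept in 14 of 18 alternatives), well under its week 2 mean of 150.4 CPM. Prdm1 is also active in plasma cells.

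Some genes of fat handling fell, more of them without week 4 sample 1. Of 22 genes of fat absorption and chylomicron assembly 6 fell (median log2 change -0.38), and 10 fell without week 4 sample 1 (median -0.76). The count was 1 with only the compared groups in the fit and 3 with the block. Apoa4, an apolipoprotein of chylomicrons, measured 5356, 7514 and 4528 CPM at week 3 against 2634, 529 and 534 CPM at week 4. Sample 1 was about 5 times the other week 4 samples and still below every week 3 sample, and the log2 change was -2.23 ± 0.41 (adjusted p = 1.36e-04) with it and -3.48 without it. Apoc3 measured 137, 218 and 177 CPM at week 3 against 123, 20.6 and 28.6 CPM at week 4, with the same position of sample 1. Its log2 change was -1.63 ± 0.39 (adjusted p = 0.00329, and 0.225 with the block). Without sample 1 that change was -2.88 (adjusted p = 3.04e-07). Dgat2, which makes triglyceride, fell by 1.42 ± 0.24 on the log2 scale, Apoc2, an activator of lipoprotein lipase, by 1.54 ± 0.33, Acsl5, which activates fatty acids, by 0.997 ± 0.22, and Creb3l3, a transcription factor of lipid genes, by 0.95 ± 0.26 (adjusted p = 5.98e-05, 8.40e-04, 0.00121 and 0.00955). With the block the adjusted p of Acsl5 was 0.0554 and that of Creb3l3 0.0558. Without week 4 sample 1 the log2 changes of Dgat2, Apoc2, Acsl5 and Creb3l3 were -1.70, -2.31, -1.47 and -1.49.

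Of 23 tested genes of ketogenesis and fatty acid oxidation 9 fell (median log2 change -0.39), and 11 did so without week 4 sample 1. Ppara, the nuclear receptor that fatty acids activate, measured 36.3, 38.3 and 37.0 CPM at week 3 against 18.0, 13.3 and 13.5 CPM at week 4 (log2 change -1.32 ± 0.21, adjusted p = 2.42e-05). A pair of its targets fell further. Pdk4, which spares glucose by blocking pyruvate dehydrogenase, measured 24.3, 45.4 and 34.0 CPM at week 3 against 3.29, 1.34 and 5.57 CPM at week 4 (log2 change -3.40 ± 0.56, adjusted p = 3.27e-05). Angptl4, an inhibitor of lipoprotein lipase, measured 68.4, 90.7 and 102 CPM at week 3 against 21.5, 9.75 and 7.54 CPM at week 4 (log2 change -2.75 ± 0.46, adjusted p = 4.32e-05). None of the 3 overlapped between ages. Acot2, a mitochondrial thioesterase, had the smallest p of the list, with a log2 change of -1.91 ± 0.19 (adjusted p = 3.25e-09). Cpt1a, the gate of mitochondrial fatty acid import, measured 207, 177 and 149 CPM at week 3 against 117, 155 and 120.2 CPM at week 4, with overlap between the ages and no call (adjusted p = 0.0777). Angptl4 had been at 2.74 CPM at week 2 and Pdk4 at 38.3 CPM.

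In sugar digestion the values turned on week 4 sample 1. Lct, which encodes lactase, measured 1234, 1665 and 1589 CPM at week 3 against 1559.9, 107 and 264 CPM at week 4. Sample 1 was within the week 3 range and samples 2 and 3 were under 300 CPM, so the change was -1.22 ± 0.46 (adjusted p = 0.0784) over 3 samples and -3.03 (adjusted p = 3.60e-07) without sample 1. Sis, sucrase-isomaltase, measured 4349.8, 4608 and 4363 CPM at week 3 against 7862, 3185 and 3000.4 CPM at week 4 and was not called either way (log2 change 0.08 with and -0.55 without sample 1). At week 2 Sis had been at 20.6 CPM, so its rise lay before week 3. Of the 4 disaccharidase genes 0 were called by edgeR and 0 by DESeq2, with 1 at an unadjusted p under 0.05, and 2 fell without sample 1.

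Among 15 genes of hexose transport, fructose use and gluconeogenesis 1 rose and 2 fell, whereas without week 4 sample 1 there were 8 falls. With the block no member was called. Slc2a2, the basolateral glucose transporter, measured 497, 482 and 400.3 CPM at week 3 against 780.3, 73.0 and 113 CPM at week 4 (log2 change -0.51, adjusted p = 0.48, and -2.33, adjusted p = 1.33e-07, without sample 1). Slc5a1, the apical sodium-glucose transporter, measured 2514, 2959 and 2244 CPM at week 3 against 4693, 2034 and 1259 CPM at week 4, and its change turned from 0.05 to -0.68 without sample 1, without a call in either fit. Pck1, the first enzyme of gluconeogenesis, fell by 1.47 ± 0.37 (adjusted p = 0.00564, and 0.132 with the block). G6pc, its last enzyme, rose by 1.501 ± 0.33 (adjusted p = 0.00149, and 0.136 with the block). Of 21 peptidase and amino acid transporter genes 2 rose and 1 fell, with the block no member was called, and without week 4 sample 1 there were 1 rise and 2 falls. The rises were those of Anpep, an aminopeptidase, with 0.80 ± 0.25, and Slc1a1, a glutamate transporter, with 0.81 ± 0.26, which kept their calls in 10 of 18 and 8 of 18 alternatives (adjusted p = 0.229 and 0.0576 with the block). The call of Anpep was also lost without week 4 sample 1 (adjusted p = 0.147). Slc7a8, a basolateral amino acid exchanger, fell by 1.04 ± 0.30 on the log2 scale (adjusted p = 0.0159, and 0.169 with the block).

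**Figure D4:**
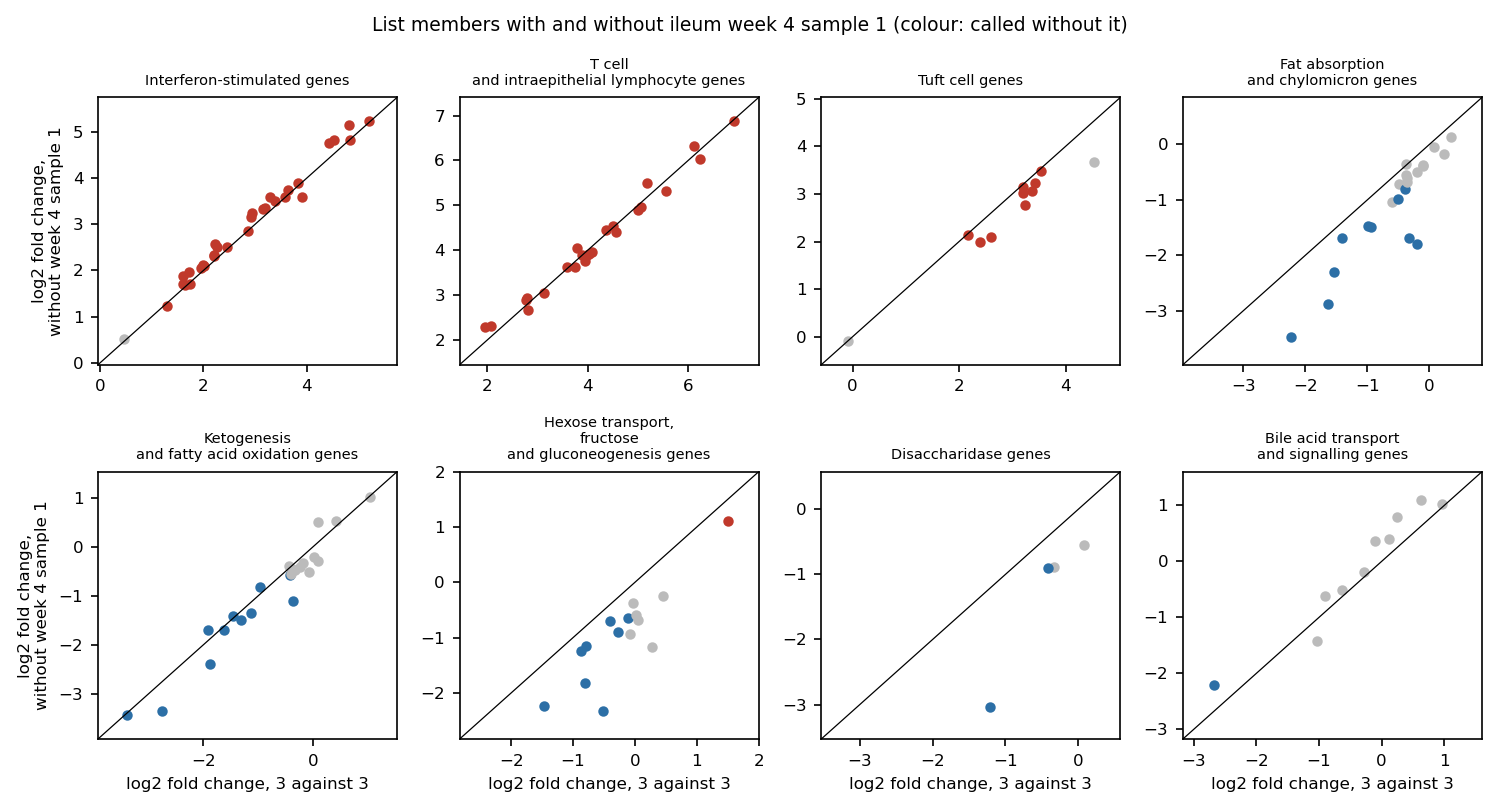
Log2 fold change of each list member over 3 against 3 samples (horizontal) and without week 4 sample 1 (vertical), for 8 gene lists. Points in red and blue were called without that sample. Members of the interferon and T cell lists lie along the line of equal values, and many members of the fat, hexose and disaccharidase lists lie below it, such as Lct at -1.22 and -3.03.

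Bile acid uptake genes were mostly not called. Of 10 tested genes 1 fell. It was Nr0b2, the bile acid-induced repressor SHP, at 0.401, 1.16 and 1.77 CPM at week 3 against 0, 0.219 and 0.272 CPM at week 4 (log2 change -2.67 ± 0.48, adjusted p = 1.07e-04). The filter of the fit with the block left Nr0b2 out, and 1 other member rose and 1 fell there. Fabp6 and Slc10a2 were not called with sample 1 (log2 changes 0.25 and -0.10) or without it (0.79 and 0.36). Of 25 genes of cholesterol synthesis and uptake 1 rose and 1 fell. Insig1, which restrains synthesis, rose by 0.67 ± 0.21, a call kept in 13 of 18 alternatives, and 2 rose without week 4 sample 1.

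Called genes of detoxification were mostly falls. Of 18 cytochrome P450 genes with their reductase 4 fell and 1 rose, and with the block 1 fell. Cyp2d26 measured 209, 355 and 302 CPM at week 3 against 114, 32.9 and 38.4 CPM at week 4. Its log2 change was -2.23 ± 0.60 (adjusted p = 0.00952, a call kept in 14 of 18 alternatives, and 0.0647 with the block), and -3.04 without week 4 sample 1. Por, the electron donor of all these enzymes, measured 167, 164 and 135 CPM at week 3 against 87.6, 78.6 and 42.3 CPM at week 4, without overlap (log2 change -1.16 ± 0.23, adjusted p = 3.24e-04). Cyp3a25 rose by 1.59 ± 0.37 (adjusted p = 0.00221). Of 23 genes of conjugation and drug efflux 9 fell and 2 rose (median log2 change -0.46), and 11 fell without week 4 sample 1. Gsta1, a glutathione transferase, measured 100.7, 127 and 106 CPM at week 3 against 33.7, 11.7 and 23.5 CPM at week 4 (log2 change -2.28 ± 0.52, adjusted p = 0.00183). Abcb1a, the efflux pump P-glycoprotein, measured 1227, 977 and 835 CPM at week 3 against 328, 575 and 333 CPM at week 4 (log2 change -1.297 ± 0.29, adjusted p = 0.00151). The ages were separate for both. The sulfotransferase Sult1d1 fell by 1.304 ± 0.23 and the glucuronosyltransferase Ugt2b5 by 1.45 ± 0.27 (adjusted p = 1.05e-04 and 1.68e-04).

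Iron and calcium genes had few calls. Slc40a1, the iron exporter ferroportin, measured 54.6, 22.4 and 14.8 CPM at week 3 against 76.3, 131 and 147 CPM at week 4, with week 4 above week 3 throughout (log2 change 1.95 ± 0.47, adjusted p = 0.00389, and 0.149 with the block), far below its week 2 mean of 737 CPM. Cybrd1, an apical iron reductase, measured 4.93, 6.92 and 8.09 CPM at week 3 against 13.0, 7.12 and 29.8 CPM at week 4. Its ages overlapped in sample 2, and its rise of 1.31 ± 0.42 (adjusted p = 0.0308, and 0.0759 with the block) kept its call in 9 of 18 alternatives. These were the 2 rises among 10 tested iron genes, and with the block no member was called. Among 9 tested calcium genes, Akp3, an intestinal alkaline phosphatase, measured 7.82, 10.4 and 6.57 CPM at week 3 against 168, 45.3 and 327 CPM at week 4 (log2 change 4.44 ± 1.03, adjusted p = 0.00264, and 0.0856 with the block), and Trpv6, the apical calcium channel, rose by 4.07 ± 1.14 (adjusted p = 0.0128, a call kept in 14 of 18 alternatives). With the block Trpv6 was the 1 rise of this list, which then had 1 fall, as it did without week 4 sample 1. Sample 2, the lowest of the week 4 libraries for both genes, was also the lowest for the 24 genes higher in duodenum (mean log2 CPM of 0.086, given above). The part of the cutting position in these rises was not tested.

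Several growth, clock and steroid-response genes fell. Of 14 tested genes of the imprinted growth network 4 fell. Igf2bp3, a fetal RNA-binding protein, measured 72.1, 77.8 and 41.6 CPM at week 3 against 20.95, 13.2 and 9.99 CPM at week 4 (log2 change -2.12 ± 0.20, adjusted p = 7.02e-10), and Cdkn1c, a growth-limiting cell cycle inhibitor, 24.8, 20.4 and 17.7 CPM at week 3 against 5.28, 5.50 and 5.98 CPM at week 4 (log2 change -1.91 ± 0.33, adjusted p = 4.90e-05). The ages did not overlap for either. The others were Grb10, with -1.503 ± 0.32 (adjusted p = 0.00107), and Igf2, with -1.52 ± 0.48 (adjusted p = 0.0308, a call kept in 12 of 18 alternatives).

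Fkbp5, a chaperone induced by glucocorticoids, measured 151, 100.3 and 63.1 CPM at week 3 against 6.81, 11.7 and 13.8 CPM at week 4. The log2 change was -3.29 ± 0.40 (adjusted p = 1.39e-07). Sgk1, a kinase induced by the same hormones, measured 643, 566 and 485 CPM at week 3 against 118, 103 and 119 CPM at week 4 (log2 change -2.32 ± 0.35, adjusted p = 8.69e-06). In both genes sample 1 was the highest and sample 3 the lowest at week 3, and week 4 was separate from all of them. Their week 2 means had been 4.72 and 261 CPM, so week 3 stood above both neighbouring ages. Over the 12 tested glucocorticoid genes 3 fell and 2 rose. The rises were those of Nfkbia, the inhibitor of NF-kappa B, with 1.07 ± 0.20 (adjusted p = 1.59e-04), and Hsd11b1, which regenerates active glucocorticoid, with 2.63 ± 0.66 (adjusted p = 0.00526). The fit with the block left Hsd11b1 out for low counts, and Nfkbia was its 1 rise.

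Of 17 circadian clock genes 4 fell and 2 rose. Per1, a period gene that glucocorticoids also induce, measured 34.9, 25.5 and 20.2 CPM at week 3 against 7.63, 6.34 and 7.14 CPM at week 4 (log2 change -1.94 ± 0.24, adjusted p = 1.81e-07). Hlf, a clock output factor, measured 10.9, 12.4 and 8.39 CPM at week 3 against 1.17, 0.4999 and 0.816 CPM at week 4 (log2 change -3.70 ± 0.58, adjusted p = 1.52e-05). Nfil3, a repressor that opposes Hlf and also acts in lymphoid cells, measured 2.37, 2.08 and 2.40 CPM at week 3 against 6.51, 9.37 and 8.02 CPM at week 4 (log2 change 1.80 ± 0.23, adjusted p = 4.69e-07). All 3 had separate ages. Npas2 fell by 1.25 ± 0.26 and Cry2 by 1.35 ± 0.28 (adjusted p = 6.33e-04 and 6.88e-04). The hour of collection is not in the labels, and its part in the clock values was not tested.

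Few genes of renewal and of the gut wall were called. Of 12 stem cell genes 0 were called by edgeR and 0 by DESeq2, with 2 at an unadjusted p under 0.05, and 1 fell with the block and 1 without week 4 sample 1. Lgr5, the receptor that marks crypt base stem cells, measured 34.9, 29.8 and 25.2 CPM at week 3 against 24.9, 40.9 and 28.3 CPM at week 4 (log2 change 0.07 ± 0.34), and Olfm4, an abundant stem cell marker, 722, 774 and 460.4 CPM at week 3 against 946, 967 and 843 CPM at week 4 (log2 change 0.49 ± 0.44). Of 28 cell cycle genes 1 fell, the mitotic kinase gene Aurkb, with -1.06 ± 0.33 (adjusted p = 0.0253, a call kept in 15 of 18 alternatives), and with the block 2 fell. The median of this list was -0.54, and 8 fell without the 8 samples that the normalized tables lack. Mki67, the proliferation marker, measured 322, 258 and 194 CPM at week 3 against 155, 190.5 and 131 CPM at week 4 (log2 change -0.70 ± 0.40, adjusted p = 0.291). Of 22 collagen and matrix genes 0 were called by edgeR, with 3 at an unadjusted p under 0.05 and 1 by DESeq2, whereas with the block 3 rose and 2 fell. Of 15 smooth muscle genes 1 rose, though the list's median was 1.19, and 8 rose without those 8 samples. The rise was that of Synm, an intermediate filament gene, with 1.94 ± 0.62 (adjusted p = 0.0307, a call kept in 11 of 18 alternatives), and with the block the list had 1 rise and 1 fall. Of 16 tested enteric neuron and glia genes Chat, which makes acetylcholine in neurons and also in tuft cells, was the 1 rise, with 2.78 ± 0.86 (adjusted p = 0.0251, and 0.0528 without week 4 sample 1), and the filter of the fit with the block left it out. Of 6 tested targets of the aryl hydrocarbon receptor 0 were called by edgeR and 0 by DESeq2, with 2 at an unadjusted p under 0.05. The summed level of 10 general epithelial genes was 13349, 16269 and 12371 CPM at week 3 against 15014, 13587 and 10086 CPM at week 4.

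The change from week 3 to week 4 was set against that in the duodenum, measured in other libraries. In both regions week 3 sample 1 had Xist and week 3 samples 2 and 3 had Ddx3y, and all week 4 samples had Xist. The labels do not say whether duodenum and ileum pieces of the same number came from the same mice. The test of the difference did not pair them. In the duodenum 1866 of 20901 genes were called (8.93%), with 1232 rises (5.89%) and 634 falls (3.03%). The test of the difference between the changes called 61 of 20901 genes (0.292%). With the block it called 37. Without ileum week 4 sample 1 it called 587 (2.69%), without ileum week 3 sample 3 it called 318, and without duodenum week 3 sample 2 it called 26, so the count rests on single libraries. In simulated data with 198 changed genes the test recovered 13.3% of differences of 2-fold and 71.6% of those of 8-fold. Of its calls there 7.84% were false. Recovery depends on how many genes change, so these shares may differ here, and small differences can go unseen.

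Most interferon-stimulated and T cell genes rose in both regions. Interferon-stimulated genes had 28 rises in the duodenum against 30 in the ileum, T cell genes 21 against 24, and tuft cell genes 3 against 10, and these counts alone do not show a difference. Reg3g rose by 6.53 ± 0.62 in duodenum, with a difference of 0.64 ± 0.69 (adjusted p = 0.809). Cybrd1 fell in duodenum by 3.17 on the log2 scale, for a difference of 4.48 ± 0.59 (adjusted p = 6.38e-05). Its duodenal values were 80.1, 118 and 27.0 CPM at week 3 against 12.8, 6.43 and 5.69 CPM at week 4, above all ileum samples at week 3 and overlapping them at week 4. Slc40a1 differed likewise, by 3.29 ± 0.66 (adjusted p = 0.0123). Slc37a2, a sugar phosphate exchanger, had the largest called difference of those named, 4.90 ± 0.87 (adjusted p = 0.00395), with 0.441, 1.26 and 0.442 CPM at week 3 against 11.8, 3.91 and 23.0 CPM at week 4 in ileum, where its rise of 4.17 ± 0.69 (adjusted p = 3.36e-05) was not called with the block (adjusted p = 0.0672).

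Trac rose in ileum but changed by 0.22 in duodenum, where it measured 2.51, 4.03 and 5.33 CPM at week 3 against 5.48, 3.67 and 4.66 CPM at week 4, and the changes differed by 3.37 ± 0.64 (adjusted p = 0.00847). Fut2 differed by 3.59 ± 0.65 (adjusted p = 0.00436), with duodenal samples at 1.27, 1.12 and 2.29 CPM at week 3 against 2.56, 6.17 and 1.73 CPM at week 4. Marchf1, a ubiquitin ligase that removes MHC class II from the surface of B cells and dendritic cells, rose in ileum by 3.47 ± 0.55 and differed by 3.32 ± 0.73 (adjusted p = 0.0265).

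Differences in the other direction included antiviral genes. Cmpk2, an interferon-induced mitochondrial nucleotide kinase, measured 68.1, 91.6 and 71.6 CPM at week 3 against 53.6, 41.6 and 68.0 CPM at week 4 in ileum and 29.1, 34.3 and 26.5 CPM at week 3 against 87.9, 123 and 129 CPM at week 4 in duodenum. It was lower at week 4 in all ileum samples without a call there (adjusted p = 0.156) and higher in all duodenum samples, and the difference was -2.42 ± 0.32 (adjusted p = 6.38e-05). Oas3 rose in both, by 3.94 in duodenum, and differed by -2.21 ± 0.44 (adjusted p = 0.0119). Tcf23, a basic helix-loop-helix factor, fell in ileum by 3.21 ± 0.32, with a difference of -2.87 ± 0.43 (adjusted p = 4.08e-04), and Mcoln3 fell in both regions but further in ileum, by -2.67 ± 0.63 (adjusted p = 0.0477). Mroh7 was called in duodenum alone, rising by 2.92, and differed by -3.54 ± 0.81 (adjusted p = 0.036). Trac and Cmpk2 kept their calls in 21 of 21 and 21 of 21 alternatives, Mcoln3 in 9 of 21 and Mroh7 in 12 of 21. With the block the difference was not called for Slc37a2 (adjusted p = 0.298), Cybrd1 (0.0889), Fut2 (0.268), Slc40a1 (0.354), Tcf23 (0.114) or Mcoln3 (0.0743).

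**Figure D5:**
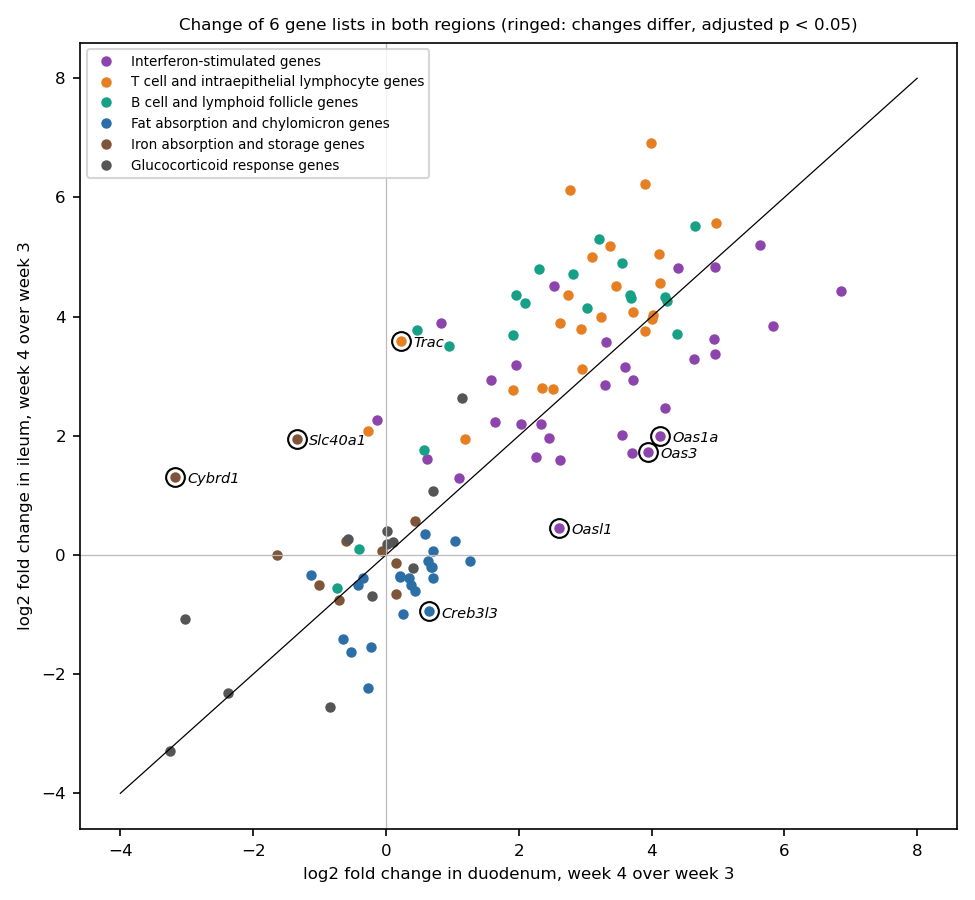
Log2 fold change of week 4 over week 3 in ileum (vertical) against duodenum (horizontal) for the members of 6 gene lists, 1 point per gene, with the line of equal change. Ringed genes had changes that differed between the regions at an adjusted p of 0.05: Trac, Slc40a1 and Cybrd1 lie above the line, and Oas1a, Oas3, Oasl1 and Creb3l3 below it.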

How the data were processed

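RNA of whole duodenum and ileum was sequenced on a NovaSeq in 48 samples, 3 for each of 2 regions and 8 ages. Per the submitters' processing notes the tools included STAR 2.6.1d, Salmon 0.14.2 and DESeq2 1.30.1 with mm10; the strand setting is not given in the sources used here. The main table that the authors deposited holds estimated counts per gene. Salmon divides reads of near-identical copies (alpha-defensins, Reg3, Saa, Mptx, guanylate-binding and GTPase paralogs, antibody segments) by a model, so single members are uncertain, and reads of an antisense partner cannot be told apart. The authors' normalized tables hold the same counts divided by a size factor per column (signal), for 40 samples.

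Estimated counts were rounded, scaled by TMM, filtered with filterByExpr (20901 of 54532 genes kept) and tested in edgeR 4.0.16 (R 4.3.3) with a robust quasi-likelihood fit over all 48 samples and 16 groups. P-values were adjusted by Benjamini-Hochberg over all tested genes and called under 0.05. Alternatives used DESeq2 1.42.0, limma 3.58.1 on log2(signal + pseudocount), other scalings and filters, fewer samples, an index of sex, the replicate number as a block in a fit of the compared groups alone, each sample left out and, chosen after seeing the data, mitochondrially encoded genes left out of the scaling. The fit was tested on simulated data. Deviations of ileum samples with the same number correlated between week 3 and week 4 at r = 0.187, 0.122 and 0.509 across genes. For other numbers r ran from -0.349 to 0.278, which overlaps these values. The number was used only as the block of that alternative fit, and the main test did not pair samples. The labels do not say what a number shares.

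Genes were named by rule: the 10 largest rises and falls called with and without ileum week 4 sample 1 whose ages did not overlap (mean log2 CPM of at least 1, no antigen receptor segments, pseudogenes or unnamed genes), the first 2 members and the 4 smallest p of each gene list, the 5 largest differences between regions in each direction, and check genes. Csf1r, Cubn, Prdm1 and further examples beyond the rule were chosen after their values were seen. The members and the 48 lists were chosen with earlier results of these data known. Promoter windows are from RefSeq (GRCm38.p6).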

Additional observations from a re-analysis of the deposited data

Results flagged for a closer look

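Each gene here had a change from week 3 to week 4 that differed between ileum and duodenum in the test of the difference itself (edgeR's quasi-likelihood test, adjusted p under 0.05). Values are the ileum change minus the duodenum change on the log2 scale ± SE, and they are given without an explanation. The genes are list members and those named by rule for this difference, a part of the 61 called. Other called genes, such as Upp1 (2.53 ± 0.47, adjusted p = 0.00602), are left out of the counts below.

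The ileum change was the higher in 6 of these genes, and the part of the cutting position in them was not tested. For Slc37a2 the difference was 4.90 ± 0.87 (adjusted p = 0.00395), from changes of 4.17 in ileum and -0.73 in duodenum. For Cybrd1 it was 4.48 ± 0.59 (adjusted p = 6.38e-05), from 1.31 in ileum and -3.17 in duodenum. For Fut2 it was 3.59 ± 0.65 (adjusted p = 0.00436), from 4.75 in ileum and 1.16 in duodenum. Trac differed by 3.37 ± 0.64 (adjusted p = 0.00847), from 3.59 in ileum and 0.22 in duodenum, Marchf1 by 3.32 ± 0.73 (adjusted p = 0.0265), from 3.47 in ileum and 0.16 in duodenum, and Slc40a1 by 3.29 ± 0.66 (adjusted p = 0.0123), from 1.95 in ileum and -1.34 in duodenum.

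Among interferon-stimulated genes the ileum change was the lower in Oas1a, by -2.14 ± 0.44 (adjusted p = 0.0155), Oasl1, by -2.14 ± 0.41 (adjusted p = 0.00847), and Oas3, by -2.21 ± 0.44 (adjusted p = 0.0119). All 3 were rises in duodenum, and Cmpk2, an interferon-induced gene outside the list, differed by -2.42 ± 0.32 (adjusted p = 6.38e-05), from -0.51 in ileum and 1.92 in duodenum.

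In genes of metabolism and efflux the ileum change was also the lower. Por differed by -1.499 ± 0.32 (adjusted p = 0.0185), Creb3l3 by -1.60 ± 0.36 (adjusted p = 0.0323), Abcb1a by -1.89 ± 0.41 (adjusted p = 0.0215) and Nr0b2 by -3.04 ± 0.60 (adjusted p = 0.011). Dbp, a clock output factor, differed by -1.90 ± 0.40 (adjusted p = 0.0178), from 0.16 in ileum and 2.05 in duodenum. With the sample number as a block these 5 were not called (adjusted p = 0.0889, 0.119, 0.0845, 0.132 and 0.138). Tcf23 differed by -2.87 ± 0.43 (adjusted p = 4.08e-04), Mcoln3 by -2.67 ± 0.63 (adjusted p = 0.0477) and Mroh7 by -3.54 ± 0.81 (adjusted p = 0.036). All 18 differences were also called without ileum week 4 sample 1. Without ileum week 4 sample 3 those of Marchf1, Slc40a1, Mroh7, Mcoln3, Abcb1a, Creb3l3, Dbp and Por were not called. Over all alternatives the call was kept in 9 of 21 for Mcoln3, 11 of 21 for Creb3l3, 12 of 21 for Por, 12 of 21 for Mroh7, 13 of 21 for each of Marchf1, Dbp and Abcb1a, and 16 of 21 for Slc40a1.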

How the results depend on the processing

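Among the 153 called genes examined under each alternative, DESeq2 kept all 153 calls, limma on the normalized signal plus 1 kept 150 and the fit with only the compared groups kept 125 of 149, and no called gene turned its direction in any fit. Many of these genes were named for a small p or a large change. Of all 2622 calls, DESeq2 shared 2576 in the same direction and limma (pseudocount 1) shared 2522. The compared groups alone, with 16643 genes tested, shared 1370, and the replicate block 1514. The count of 2622 calls was 1527 with only the compared groups, 4753 without the 8 samples that have no normalized column and 3970 with limma (pseudocount 1). Leaving out a sample gave 1706 to 3163 (1706 without week 3 sample 1). Rises ran from 1021 to 1851 with a sample left out and were 2592 without the 8 samples. Falls ran from 685 to 1428 with a sample left out and were 519 with only the compared groups, 2161 without the 8 samples, 2047 and 2045 with limma at pseudocounts 1 and 0.1, and 618 with the replicate block. The block gave 1787 calls in all and changed no call of a gene named in the report other than those given there. The 61 differences between regions became 249 with DESeq2, 18 with only the compared groups, 550 without the 8 samples and 37 with the block, and 26 to 587 with a sample left out. The cause of these shifts was not tested. Genes that were not called turned direction in some fits. With the block Sis changed by -0.046, Slc5a1 by -0.13 and Fabp6 by -0.59, and with limma at both pseudocounts by -0.073, -0.16 and -0.96. With a sample left out the ranges were -0.55 to 0.29 for Sis, -0.68 to 0.35 for Slc5a1, -1.05 to 0.36 for Slc10a2, -0.54 to 0.79 for Fabp6, -0.18 to 0.19 for Lgr5 and -0.99 to 0.27 for Adgre1. Over all genes examined, 1908 of the values from alternatives other than leaving out a sample kept direction and call and 98 lost a call. A further 13 gained a call and 9 turned direction. With a sample left out 912 values kept both, 96 lost a call, 4 gained one and 8 turned direction. In simulated data the ileum test recovered 28.3% of 2-fold and 74.6% of 8-fold changes, and 6.5% of its calls were false. Only 198 tested genes were changed there, fewer than the 2622 called here, so these shares may differ in the data. Small changes at this depth and number of samples can be missed.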
